A study of Mus musculus with 14 samples.

Results

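Sterol synthesis in T cells of wild type (WT) and ENK KO mice was followed through 8 genes. They comprise Hmgcs1, Idi1, Fdps, Fdft1, Sqle, Lss and Cyp51, which encode enzymes of the pathway to cholesterol, and Srebf2, which encodes the transcription factor SREBP2. The genes were chosen by name, and each was read from the probe set with 1 gene symbol that had the highest mean over all 14 arrays. All 8 were found among the 19937 genes so represented, and all 8 were among the 13641 tested. The working name of this group also mentions cholesterol uptake. None of the 8 encodes an uptake receptor, so uptake and transport genes were read from a separate list.

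Cells make cholesterol from acetyl-CoA through mevalonate, isoprenoid units, squalene and lanosterol, and take it up as lipoproteins. SREBP2 is held in the endoplasmic reticulum when sterols are plentiful. When they fall it is carried to the Golgi and cleaved, and its released part enters the nucleus and raises transcription of most enzymes of the pathway and of the lipoprotein receptor genes. Dividing lymphocytes need sterol for new membranes, and resting T cells need less.

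Promoter windows from RefSeq (GRCm38.p6) were matched for 5 of the 8 genes, Hmgcs1, Idi1, Lss, Cyp51 and Srebf2. Fdps, Fdft1 and Sqle are named only. The 150 bases before the annotated start are shown for 3 genes that behaved differently in these data. Cyp51 had the largest difference between the WT populations among the 8 genes, Idi1 had one of the smallest, and Hmgcs1 carried the sterol regulatory element searched for. Capitals mark the element TCACNCCAC and the NF-Y box CCAAT, on either strand (ATTGG is CCAAT on the other strand). Each sequence is written 5′ to 3′ on the strand of its gene. Hmgcs1 lies at chr13:119690201-119690350 on the plus strand, Idi1 at chr13:8885456-8885605 on the plus strand, and Cyp51 at chr5:4104698-4104847 on the minus strand.
Hmgcs1: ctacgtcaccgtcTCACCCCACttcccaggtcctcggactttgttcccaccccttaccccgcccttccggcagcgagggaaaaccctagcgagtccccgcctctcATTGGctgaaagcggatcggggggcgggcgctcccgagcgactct
Idi1: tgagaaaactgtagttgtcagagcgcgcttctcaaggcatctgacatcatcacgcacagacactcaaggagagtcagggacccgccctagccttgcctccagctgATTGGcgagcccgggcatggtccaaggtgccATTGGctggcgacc
Cyp51: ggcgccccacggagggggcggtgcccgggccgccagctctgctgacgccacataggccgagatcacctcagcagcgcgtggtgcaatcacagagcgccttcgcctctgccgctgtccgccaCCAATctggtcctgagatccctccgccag
The element TCACNCCAC, a form of the site bound by SREBP proteins, was found in 1 of the 5 windows and in 1.24% of 32851 windows of the same length (250 bases before to 50 after a start). No other form of the sterol regulatory element was searched, so a window without a match may still hold such a site. The match in Hmgcs1 read TCACCCCAC and ran from base -137 to base -129, where base -1 is the last before the start. CCAAT was found in 5 of 5 windows against 37.4% of all windows, and the Sp1 box GGGCGG in 5 of 5 against 35.7%. The E-box CACGTG was found in 0 of 5 against 7.15%. Both strands were searched, no 2 matches of different motifs shared a base, and a match is a run of letters, not a shown site of binding.

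Expression was measured on 14 arrays, 1 per sample of sorted T cells from C57BL/6 mice. The groups were thymus CD4+CD8+ cells from WT mice (n = 3) and ENK KO mice (n = 2), and spleen CD8+ cells from WT mice (n = 4) and ENK KO mice (n = 5). CD4+CD8+ thymocytes are an immature stage of T cell development, and CD8+ cells of the spleen are mature cells of the cytotoxic lineage. WT mice were all 7 months old. Thymus ENK KO replicate 29 was 7 months old and replicate 1 was 2 months old. Spleen ENK KO mice were 7 (replicate 31), 2 (replicates 6 and 3), 6 (replicate 28) and 9 months old (replicate 25). The 2-month-old mice were labelled female and all other ENK KO mice male, and 1 mouse of each WT group was labelled female. No treatment is given. ENK is not spelled out in the labels, the series title names Engrailed-2, and the labels do not say which cells lack the gene. They also do not say that every sample is a different mouse. The p-values therefore measure only the spread seen between these samples, and the small number of arrays limits their precision.

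The markers of the sorted populations went with the labels on 13 of the 14 arrays. In the library labelled spleen ENK KO replicate 28, Cd4 was at 12.20, Cd8a at 6.78 and Cd8b1 at 9.10 on the log2 scale, and Foxp3 and Il2ra, markers of regulatory T cells, were at 9.87 and 11.14. The other 8 spleen arrays had Cd4 between 6.61 and 6.92, Cd8a between 12.06 and 12.53 and Foxp3 between 7.34 and 7.48. Spleen WT replicate 22 was labelled female, but its Xist value of 5.90 lay within the range of the 9 male arrays (5.52 to 6.38) and below the 4 other female arrays (12.36 to 13.37). Where leaving out replicate 28 changes a call, a direction or the size of a value, both values are given, and the few values that replicate 22 changes are named beside their gene.

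In WT mice, 4 of the 8 genes were higher in spleen CD8+ cells than in thymus CD4+CD8+ cells by limma (Benjamini-Hochberg adjusted p under 0.05 over all 13641 genes), and none was lower. These were Cyp51, Lss, Sqle and Hmgcs1, with differences of 1.04, 0.75, 0.53 and 0.52 on the log2 scale. The comparison called 68.6% of all genes, 30.5% higher and 38.2% lower in spleen, so a call by itself is common here. The median difference of the 8 genes was 0.39, against -0.045 over all genes tested. The 4 genes without a call, Fdft1, Srebf2, Idi1 and Fdps, had differences between 0.042 and 0.27. In a bulk sample, fewer cells of a type and less RNA per cell cannot be told apart, and here organ and cell stage cannot be told apart either.

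**Figure D1:**
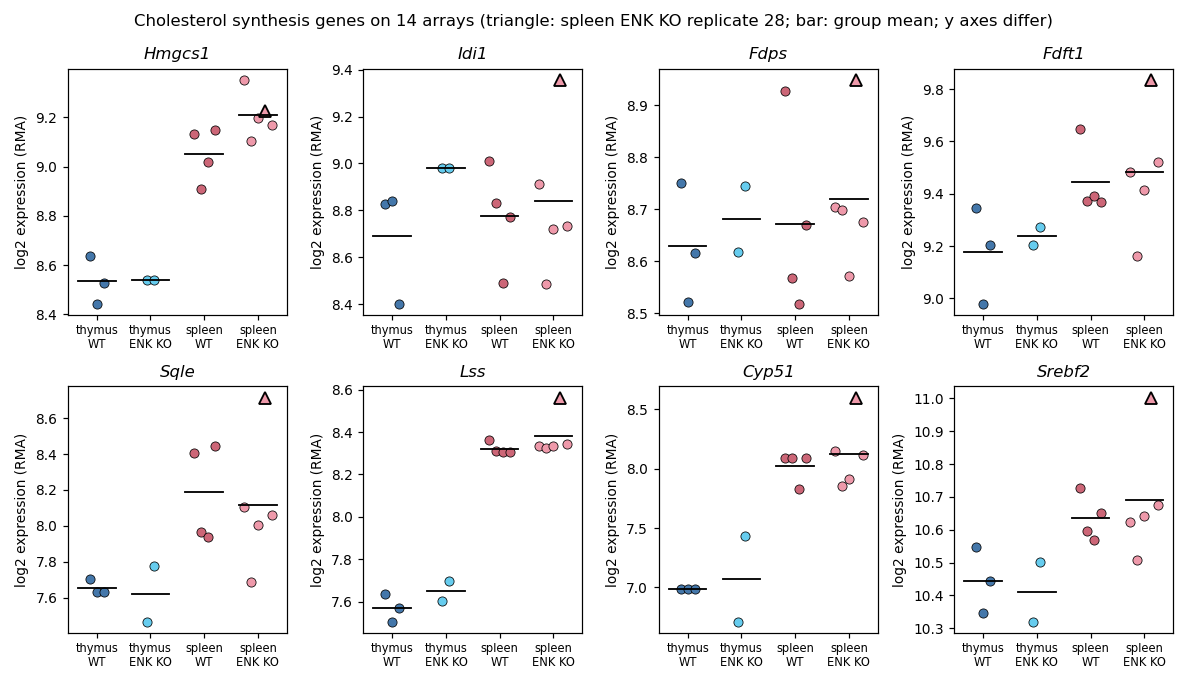
Each point is the log2 expression value (RMA) of 1 array for 1 of the 8 genes, by group, with bars at the group means and a triangle for spleen ENK KO replicate 28; the y axes differ between panels. Every spleen array lies above every thymus array for Hmgcs1, Lss and Cyp51, while Idi1 and Fdps overlap between organs.

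Hmgcs1 encodes the HMG-CoA synthase of the cytosol, which makes the substrate of the rate-limiting step of the pathway. Its log2 values were 8.53, 8.64 and 8.44 in thymus WT (replicates 38, 7 and 32), 8.54 and 8.54 in thymus ENK KO (29 and 1), 9.15, 9.02, 8.91 and 9.13 in spleen WT (40, 37, 34 and 22), and 9.17, 9.10, 9.22, 9.20 and 9.35 in spleen ENK KO (31, 6, 28, 25 and 3). The lowest spleen array stood above the highest thymus array. The difference between the WT populations was 0.52 (SE 0.072, a fold of 1.43, limma adjusted p = 3.01e-05). The group means ran from 8.54 in both thymus groups through 9.05 in spleen WT to 9.21 in spleen ENK KO, and the neighbouring groups of one organ overlapped.

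Idi1 encodes the isomerase that interconverts the basic isoprenoid units. In the same order of arrays its values were 8.40, 8.83 and 8.84 in thymus WT, 8.98 and 8.98 in thymus ENK KO, 8.77, 8.49, 8.83 and 9.01 in spleen WT, and 8.73, 8.49, 9.36, 8.72 and 8.91 in spleen ENK KO. Thymus WT replicate 38 lay well below its group, and replicate 28 was the highest of all arrays. WT spleen and thymus overlapped, with a difference of 0.087 (95% interval -0.31 to 0.48). It turned to -0.057 without thymus WT replicate 38.

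Fdps encodes farnesyl diphosphate synthase, at the branch point to sterols, ubiquinone and prenylated proteins. Its values were 8.62, 8.75 and 8.52 in thymus WT, 8.74 and 8.62 in thymus ENK KO, 8.67, 8.52, 8.57 and 8.93 in spleen WT, and 8.68, 8.70, 8.95, 8.57 and 8.70 in spleen ENK KO. All 4 groups overlapped. The WT difference between populations was 0.042 (95% interval -0.18 to 0.27), and it turned to -0.011 without thymus WT replicate 32 and to -0.043 without spleen WT replicate 22.

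Fdft1 encodes squalene synthase, the first enzyme that serves sterols alone. Its values were 9.20, 9.35 and 8.98 in thymus WT, 9.27 and 9.20 in thymus ENK KO, 9.37, 9.39, 9.37 and 9.65 in spleen WT, and 9.52, 9.16, 9.84, 9.41 and 9.48 in spleen ENK KO. The WT groups did not overlap, yet the difference of 0.27 (SE 0.13) missed the threshold (limma adjusted p = 0.0892). Without replicate 28, which is in neither of these groups but adds to the shared estimate of spread, it passed (adjusted p = 0.0381). The second probe set of Fdft1 gave a smaller difference of 0.090, and that of Idi1 gave 0.065, close to its first.

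Sqle encodes squalene epoxidase, a second rate-controlling enzyme. Its values were 7.63, 7.71 and 7.63 in thymus WT, 7.77 and 7.47 in thymus ENK KO, 8.44, 7.94, 7.97 and 8.41 in spleen WT, and 8.06, 7.68, 8.71, 8.01 and 8.11 in spleen ENK KO. The WT groups did not overlap, and the spleen WT arrays fell into a higher pair (replicates 40 and 22) and a lower pair. The difference was 0.53 (SE 0.20, a fold of 1.45, limma adjusted p = 0.0298). With replicate 28 kept, this call was lost when any 1 of 5 WT arrays was left out. The limma adjusted p was 0.0549, 0.0719 and 0.0715 without thymus WT replicates 7, 32 and 38. It was 0.0767 and 0.0797 without spleen WT replicates 22 and 40. With replicate 28 alone left out, the adjusted p was 0.0049.

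Lss encodes lanosterol synthase, which closes the sterol rings. Its values were 7.57, 7.64 and 7.51 in thymus WT, 7.70 and 7.60 in thymus ENK KO, 8.31, 8.31, 8.31 and 8.36 in spleen WT, and 8.34, 8.33, 8.56, 8.33 and 8.33 in spleen ENK KO. The organs were far apart relative to the spread within either. The WT difference was 0.75 (SE 0.059, a fold of 1.68, limma adjusted p = 1.39e-07).

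Cyp51 encodes the demethylase that acts on lanosterol. Its values were 6.98 on all 3 thymus WT arrays, 7.43 and 6.71 in thymus ENK KO, 8.09, 7.83, 8.09 and 8.09 in spleen WT, and 8.12, 7.85, 8.60, 7.92 and 8.15 in spleen ENK KO. Every spleen array lay above every thymus array. The WT difference was 1.04 (SE 0.18, a fold of 2.06, limma adjusted p = 1.60e-04). Thymus WT lay just above 6.76, the level a gene had to exceed on at least 2 arrays to be tested. Thymus ENK KO replicate 1 lay below that level, so the size of the fold is uncertain. At least 2 arrays were identical to 6 decimals in 38.8% of all genes in thymus WT and 19.9% in spleen WT. For Cyp51 the condition met was stricter, and its share of all genes was not counted. The 3 thymus WT values, and 3 of the 4 spleen WT values, were identical. The SD of Cyp51 in thymus WT is thus 0, and its test leans on the spread of the other groups.

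Srebf2, the regulator, had values of 10.44, 10.55 and 10.35 in thymus WT, 10.50 and 10.32 in thymus ENK KO, 10.65, 10.57, 10.60 and 10.73 in spleen WT, and 10.68, 10.51, 11.00, 10.64 and 10.62 in spleen ENK KO. The WT groups did not overlap but came close. Their difference of 0.19 (SE 0.099) missed the threshold (limma adjusted p = 0.103) and passed it without replicate 28 (adjusted p = 0.0212). WT groups did not overlap, with spleen higher, for 6 of the 8 genes, against 32.6% of all genes. Without replicate 28 the WT comparison called 6 of the 8 genes higher and 31.3% of all genes. With spleen WT replicate 22 also left out, a setting chosen after seeing the data, Fdft1 and Srebf2 were again not called.

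**Figure D2:**
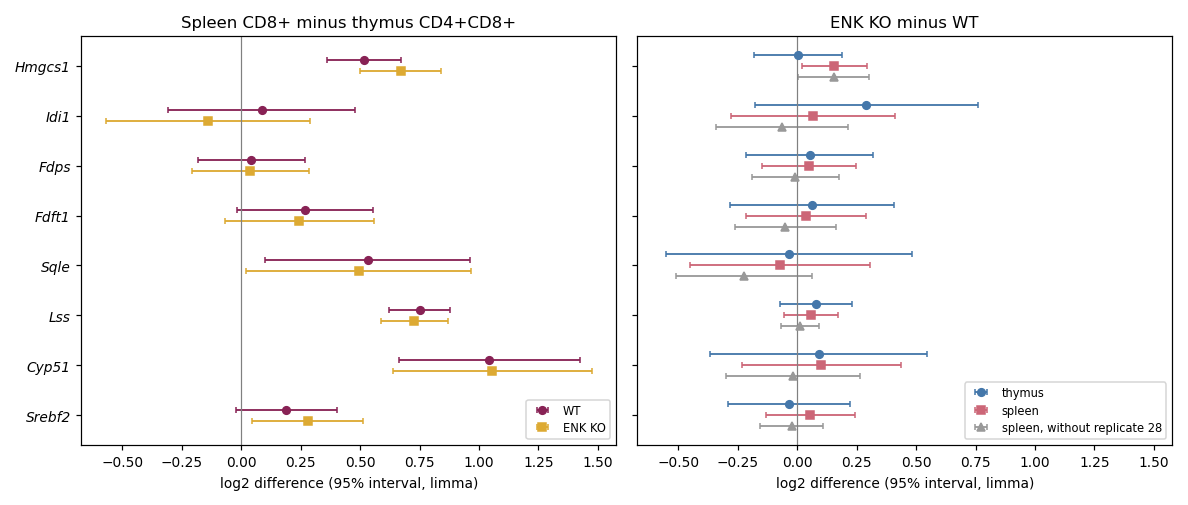
Points are log2 differences with 95% intervals from limma for the 8 genes, left for spleen CD8+ minus thymus CD4+CD8+ cells in each genotype and right for ENK KO minus WT in each organ, with grey triangles for spleen without replicate 28. The left panel shows Cyp51, Lss, Hmgcs1 and Sqle clear of 0 in both genotypes, and on the right only the intervals of Hmgcs1 in spleen, with and without replicate 28, lie clear of 0, before any adjustment for the number of genes.

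In ENK KO mice, whose arrays are not those of the WT comparison, 4 of the 8 genes were higher in spleen and none was lower, where limma called 64.4% of all genes, 27.4% higher and 37.1% lower. Cyp51 was higher by 1.06 (limma adjusted p = 3.54e-04), Lss by 0.73 (5.65e-07), Hmgcs1 by 0.67 (7.53e-06) and Srebf2 by 0.28 (0.0372). Sqle had a difference of 0.49 that missed the threshold (adjusted p = 0.063), and Idi1, Fdps and Fdft1 had differences of -0.14, 0.039 and 0.24. The groups did not overlap, with spleen higher, for 4 genes, against 29.9% of all genes. The median of the 8 genes was 0.39, against -0.059 over all genes.

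Without replicate 28 the same count of 4 genes was called in ENK KO mice, against 27.9% of all genes, and the median of the 8 was 0.27. Cyp51 then differed by 0.94, Lss by 0.68, Hmgcs1 by 0.67 and Srebf2 by 0.20 (limma adjusted p = 0.0315). The 4 genes not called were at 0.34 for Sqle, 0.16 for Fdft1, -0.019 for Fdps, with its sign changed, and -0.27 for Idi1. With replicate 28 kept, the Srebf2 call was lost without spleen ENK KO replicate 31 (limma adjusted p = 0.0516). Without thymus ENK KO replicate 1, which leaves 1 array in that group, the Srebf2 difference was 0.19. With replicate 28 kept and spleen ENK KO replicate 6 left out, Sqle and Fdft1 passed (limma adjusted p = 0.0209 and 0.0434).

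Markers of dividing cells moved with organ in the opposite direction. Of 14 listed, 13 were measured, and their mean log2 level per array lay between 8.44 and 8.96 in thymus WT, 9.04 and 9.30 in thymus ENK KO, 6.70 and 6.77 in spleen WT, and 6.66 and 6.98 in spleen ENK KO. All 13 exceeded the detection filter in thymus, and 7 of the 13 did on some spleen WT array. Markers of activated T cells (8 of 8 measured) ran from 9.37 to 9.56 in thymus WT and from 10.34 to 10.77 in spleen WT. Markers of B cells, NK cells, platelets and erythroid cells were also higher in spleen WT than in thymus WT. Those of myeloid cells (5 of 5 measured) overlapped, from 6.62 to 6.66 in thymus WT and from 6.62 to 6.79 in spleen WT. B cell markers (4 of 5 measured) ran from 6.62 to 6.74 in thymus WT and from 7.65 to 8.26 in spleen WT, and NK cell markers (4 of 4) from 5.78 to 5.85 and from 6.93 to 7.18. Of the 4 NK cell markers, 2 exceeded the filter on some spleen WT array. Platelet markers (4 of 4) ran from 6.30 to 6.40 and from 7.20 to 7.45, and erythroid markers (2 of 5) from 7.04 to 7.21 and from 8.19 to 8.74. The part of these cells in the differences of the 8 genes was not tested.

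No difference between genotypes was detected for the 8 genes in either organ. In thymus, limma called 0 of the 8, against 0.0147% of all genes, and 0 of the 8 had an unadjusted p under 0.05, against 3.53%. Differences (ENK KO minus WT) ran from -0.035 for Sqle to 0.29 for Idi1, and the 95% intervals of the 8 genes spanned -0.55 to 0.76. In linear terms those bounds are folds of 0.683 and 1.69. For Idi1 both ENK KO arrays lay above all 3 WT arrays, as did those of 4.04% of all genes. Cyp51 showed the widest spread in thymus ENK KO, with replicate 29 above and replicate 1 below all WT arrays.

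In spleen, limma called 0 of the 8 genes, against 0.00733% of all genes. Differences ran from -0.074 for Sqle to 0.16 for Hmgcs1, and the genotypes overlapped for all 8. Hmgcs1 had a mean of 9.05 ± 0.11 on the 4 WT arrays and 9.21 ± 0.091 on the 5 ENK KO arrays (SD). It was the 1 gene of the 8 with an unadjusted p under 0.05 (limma adjusted p = 0.595), against 8.37% of all genes. The 95% intervals of the 8 genes spanned -0.45 to 0.44. Of the 8 differences, 7 were above 0 with all arrays and 2 without replicate 28, when they ran from -0.22 for Sqle to 0.15 for Hmgcs1. Those of Idi1, Fdps, Fdft1, Cyp51 and Srebf2 changed sign.

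The test of whether the knockout acted differently in the organs (spleen effect minus thymus effect) called 0 of the 8, against 0.00733% of all genes, and 0 of the 8 had an unadjusted p under 0.05, against 2.99%. The estimates ran from -0.23 for Idi1 to 0.15 for Hmgcs1. Without replicate 28 they ran from -0.36 to 0.15, and again 0 were called.

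Within spleen, the highest values of these genes mostly fell on replicate 28 of the ENK KO label, the library with markers of regulatory T cells. It held the highest value of all 9 spleen arrays for 7 of the 8 genes and for 14.96% of all genes tested. Hmgcs1 was the exception, with its highest value on replicate 3. Against the mean of the other 4 spleen ENK KO arrays, replicate 28 was higher by 0.75 for Sqle, 0.64 for Idi1, 0.59 for Cyp51, 0.44 for Fdft1, 0.39 for Srebf2, 0.29 for Fdps, 0.23 for Lss and 0.018 for Hmgcs1. The median was 0.41, against 0 over all genes. It is 1 library, so no test is given.

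**Figure D3:**
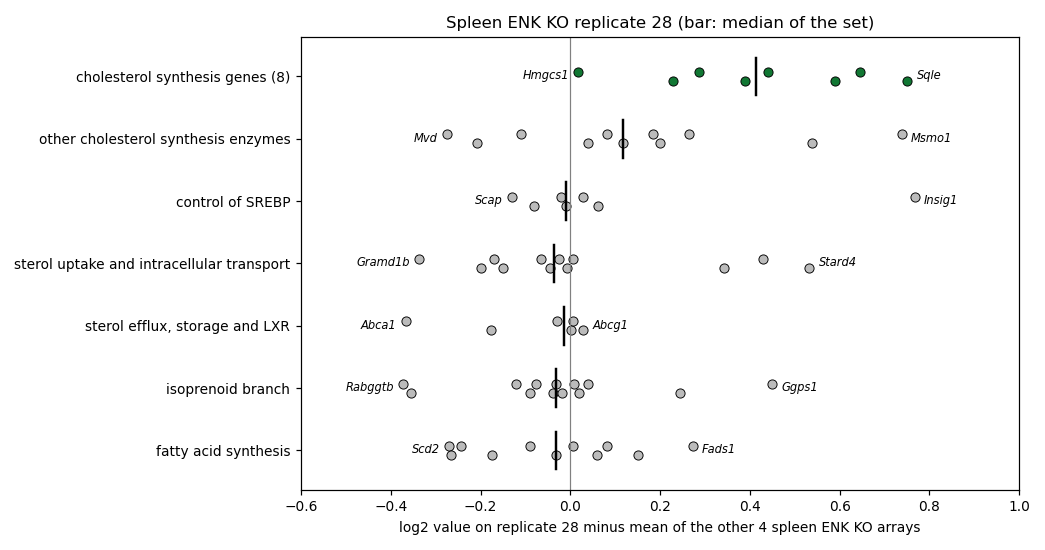
Each point is 1 gene, placed by its log2 value on spleen ENK KO replicate 28 minus the mean of the other 4 spleen ENK KO arrays, for the 8 genes (green) and 6 pathway lists (grey), with bars at the medians. All 8 genes lie at or above 0.018, while most lists centre near 0 with single genes such as Insig1 and Msmo1 far to the right.

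Some other genes known as targets of SREBP were also high on replicate 28. Insig1, which retains SREBP in the endoplasmic reticulum, was at 10.16, 0.77 above the other 4 arrays. Msmo1, a methyl sterol oxidase that acts after Cyp51, was 0.74 higher, the desaturase gene Sc5d 0.54 higher and Stard4, a sterol transfer protein, 0.53 higher. Of the 11 other synthesis enzymes 8 lay above the mean of the other arrays, and of the 12 uptake and transport genes 4 did, against 49.9% of all genes. Of the 7 genes that control SREBP, Insig1 among them, 3 did (median difference -0.0097). Of the 11 fatty acid synthesis genes 5 did (median -0.032), and Fasn, the fatty acid synthase gene, was lower by 0.24. Mvd, an earlier enzyme of the mevalonate segment, was lower by 0.28. On the same array all 5 markers of regulatory T cells were the highest of the spleen arrays. Their median difference from the mean of the other 4 ENK KO arrays was 2.47. Of 13 dividing-cell markers, 1 lay above its mean on those 4 arrays (median difference -0.11), and 0 were the highest of the spleen arrays. The part of these markers' cells in the values of the sterol genes was not tested.

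The 8 genes also moved together from array to array within groups. After each group's mean was removed, all 28 pairs of the 8 genes had a positive Pearson correlation over the 14 arrays, with a median of 0.739 (0.209 to 0.954). Over the 13 arrays without replicate 28 all 28 pairs were again positive, with a median of 0.582 (0.204 to 0.867). The closest gene to the average of the other 7 was Srebf2 itself, at 0.948 over 14 arrays and 0.908 over 13. Hmgcs1 was the loosest over 14 arrays at 0.444, and Idi1 over 13 at 0.507. These correlations are a description, since the values share arrays, RNA and normalization.

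**Figure D4:**
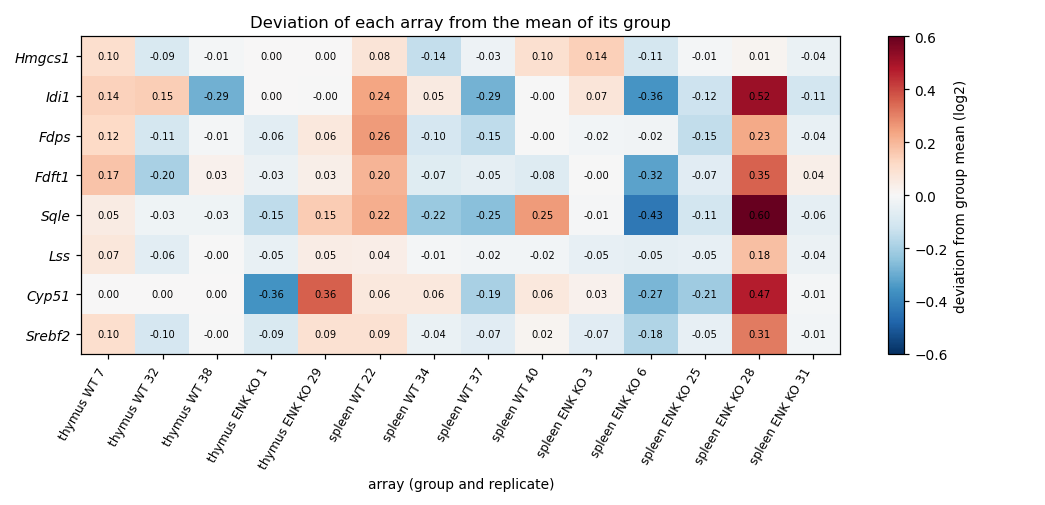
Each cell gives the log2 deviation of 1 array (columns, by group and replicate) from the mean of its group for 1 of the 8 genes (rows), red above and blue below. Spleen ENK KO replicate 28 is red for all 8 genes and replicate 6 blue for all 8 (7 when replicate 28 is left out of the mean), and thymus WT replicate 7 is above its group mean for the 7 genes whose thymus WT arrays differ.

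Deviations were not confined to replicate 28. With replicate 28 left out of its group mean, spleen ENK KO replicate 6, from a 2-month-old mouse, lay below that mean for 7 of the 8 genes, at -0.28 for Sqle and -0.23 for Idi1, and Fdps was at 0.036. With replicate 28 in the mean all 8 lay below it, at -0.43 for Sqle and -0.36 for Idi1. Spleen WT replicate 22 lay above its group mean for all 8, by 0.26 for Fdps and 0.24 for Idi1. Its Cyp51 value of 8.09 was identical to those of replicates 40 and 34. No share over all genes is given beside these counts, so they are not read as particular to the 8 genes. Among all genes tested, the 5 whose deviations were most like the mean of the 8 over 14 arrays were Letm2 (Pearson correlation 0.967), Copg2 (0.945), Golga5 (0.940), Desi2 (0.935) and Ddx59 (0.931). Over 13 arrays they were Cnot9 (0.934), Letm2 (0.933), Pecam1 (0.924), Lyrm7 (0.910) and Mettl22 (0.902). The only name on both lists is Letm2. Of the 11 other synthesis enzymes tested, Msmo1 was closest, at 0.909 over 14 arrays and 0.772 over 13, followed over 14 arrays by Dhcr7 at 0.796 and Sc5d at 0.780, while Mvd stood at -0.646 over 14 arrays and 0.140 over 13.

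The rest of the pathway was less uniform between the WT populations. Of 11 other cholesterol synthesis enzymes tested (15 listed), 4 were higher in spleen and 3 lower by limma, against 30.5% and 38.2% of all genes, with a median of 0.12. Those higher were Hsd17b7 (0.70, adjusted p = 1.78e-07), a ketoreductase, Msmo1 (0.57), Mvd (0.56) and Ebp (0.30), the sterol isomerase. Lower in spleen were Lbr (-0.62), a sterol reductase that is also a nuclear envelope protein, Dhcr7 (-0.55), the final reductase of one branch, and Pmvk (-0.40), the phosphomevalonate kinase. Without replicate 28 the counts were 5 higher and 4 lower, where 70.1% of all genes were called, 31.3% higher.

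**Figure D5:**
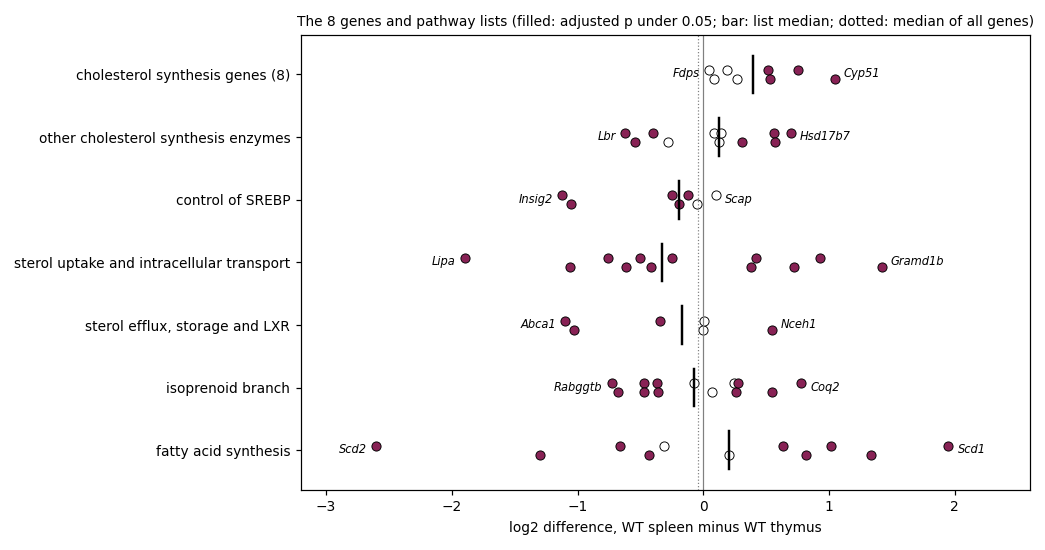
Each point is 1 gene, placed by its log2 difference between WT spleen CD8+ and WT thymus CD4+CD8+ cells, for the 8 genes and 6 pathway lists; filled points had a limma adjusted p under 0.05, bars mark list medians and the dotted line marks the median of all genes (-0.045). The 8 genes lie at or above 0.042, and each of the 6 lists has genes on both sides of 0.

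Among genes that control SREBP, 7 were tested (10 listed). In spleen 0 were higher and 5 lower, against 30.5% and 38.2% of all genes, with a median of -0.19. Insig2, which like Insig1 retains SREBP, differed by -1.12 (limma adjusted p = 9.17e-07) and Mbtps1, the protease that makes the first cut in SREBP, by -1.05 (adjusted p = 1.39e-09). Marchf6, a ubiquitin ligase of the endoplasmic reticulum, and Srebf1, the paralogue of Srebf2, were lower by smaller amounts (-0.25 and -0.19). Rnf139, another ubiquitin ligase, was just past the threshold (-0.12, adjusted p = 0.0493). Insig1 and Scap, the escort of SREBP, had differences of -0.052 and 0.10 and were not called.

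All 12 uptake and transport genes tested (16 listed) differed between the WT populations, against 68.6% of all genes. In spleen 5 were higher and 7 lower, against 30.5% and 38.2% of all genes, with a median of -0.33. Gramd1b, which carries sterol from the plasma membrane to the endoplasmic reticulum, was higher by 1.42 (limma adjusted p = 8.97e-06), Scarb1, the receptor for high-density lipoprotein, by 0.93, Stard4 by 0.72 and Npc2, which hands sterol on in lysosomes, by 0.42. Lower in spleen were Lipa, the lysosomal lipase that frees cholesterol from its esters (-1.90, adjusted p = 9.85e-09), Lrp8 (-1.06), a receptor of the lipoprotein receptor family, Npc1 (-0.76), the partner of Npc2, and Stard3 (-0.61). Uptake and transport therefore had no common direction.

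Of 6 efflux, storage and LXR genes tested (10 listed), Nceh1, an ester hydrolase, was higher in spleen (0.55), and the exporters Abca1 (-1.10) and Abcg1 (-1.03) and the apolipoprotein gene Apoe (-0.34) were lower. The 1 higher and 3 lower compare with 30.5% and 38.2% of all genes, and the median was -0.17. The isoprenoid branch (13 tested of 14 listed) had 4 genes higher and 6 lower in spleen, near the shares of all genes, with a median of -0.074. Coq2, of ubiquinone synthesis, was higher by 0.78, and Rabggtb and Zmpste24, of protein prenylation and its processing, were lower (-0.73 and -0.68).

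Fatty acid synthesis genes (11 tested of 11 listed) had 5 higher and 4 lower in spleen, against 30.5% and 38.2% of all genes, with a median of 0.20. Scd1 and Scd2, a pair of stearoyl-CoA desaturases, went in opposite directions, at 1.95 (limma adjusted p = 2.85e-04) and -2.61 (1.27e-07). Scd1 stood at 5.71 on all 3 thymus WT arrays, below the detection filter of 6.76, so the size of its difference is uncertain. Acaca, the carboxylase of the first committed step, was higher by 1.34, while Fads2, a desaturase of polyunsaturated fatty acids, differed by -1.30. The spleen WT mean of Fads2 was 6.54, also below the filter. In ENK KO mice 27.4% of all genes were called higher in spleen and 37.1% lower. The list counts, higher and lower, were 4 and 3 for the other enzymes, 0 and 5 for SREBP control and 4 and 7 for uptake and transport. They were 1 and 2 for efflux, 5 and 5 for the isoprenoid branch and 6 and 4 for fatty acid synthesis. Without replicate 28 they were 4 and 6 for uptake and transport, where Npc1 lost its call (limma adjusted p = 0.0698), and as before for the other 5 lists. That setting called 65% of all genes, 27.9% higher. No gene of the 6 lists was called between genotypes in either organ. At an unadjusted p under 0.05 there were 4 in thymus, against 3.53% of all genes. They were 1 of 6 efflux genes and 3 of 11 fatty acid synthesis genes, with 0 in each other list. Apoe at -0.34 and Fads2 at 0.46 were the farthest from 0. In spleen there was 1, Mbtps1 at 0.099, against 8.37% of all genes. It was 1 of 7 genes that control SREBP, with 0 in each other list. Without replicate 28, Mbtps1 was at 0.093 and no longer under 0.05, and Fasn, the fatty acid synthase gene, was the 1 gene under it in spleen, at 0.18.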

How the data were processed

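The authors deposited log2 values for each probe set, made by RMA according to the submitters' processing notes. That method corrects background, normalizes by quantiles and summarises probes, which can give identical values on several arrays. Its software, version and genome build, and whether it ran on all arrays at once, are not stated in the labels. Of 28213 probe sets, 21640 had 1 gene symbol in the platform annotation, giving 19937 genes. Of the 954 genes with several probe sets, the one with the highest mean was kept. Levels were not compared between probe sets.

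A gene was tested if at least 2 arrays exceeded 6.76, the 40th percentile of the whole table, which kept 13641 genes. One limma model (version 3.58.1, R 4.3.3) fitted the 4 group means to all 14 arrays, with eBayes and a trend, Benjamini-Hochberg adjustment and a threshold of 0.05. The steps were tested on simulated data. Promoter motifs were searched in a RefSeq table. The 8 genes, the lists, the tests and the alternatives were chosen with earlier results of these data known. Lists name up to 4 genes in each direction with the largest differences among those called. The genes most like the 8 had the highest Pearson correlation, after centring on group means, with the average of the 8 scaled by their SD within groups. Other genes named, and those named for replicate 28, were chosen after their values were seen. Alternatives covered filters, normalization, probe sets, variance models, covariates and left-out arrays.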

Additional observations from a re-analysis of the deposited data

Results flagged for a closer look

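Each of the 8 genes was examined in both spleen groups, the groups with at least 4 arrays, for an array set apart from its group. In 4 of these 16 groups the gap to the nearest array exceeded Dixon's 95% critical value, where chance gives about 1 in 20 for a single group. The 16 groups are not independent, since they are 8 genes that moved together on the same 9 arrays, so their number is not read against that rate. Lss on the library labelled spleen ENK KO replicate 28 was at 8.56, above the other 4 arrays at 8.33 to 8.34. Lss on spleen WT replicate 22 was at 8.36, above 8.31 on the other arrays, and Fdft1 on the same array was at 9.65, above 9.37 to 9.39. Cyp51 on spleen WT replicate 37 was at 7.83, below 8.09 on the other arrays, which were identical, so that the gap fills the whole range by construction.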

How the results depend on the processing

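The calls of Lss and Cyp51 in both comparisons of organs, and of Hmgcs1 in ENK KO mice, held under every alternative run. The call of Hmgcs1 in WT mice held under all but the rule of an unadjusted p and a fold of at least 1.5, which left 2 of the 8 genes in WT mice. No alternative gave a call for any of the 8 genes between genotypes. No paired analysis was possible because no replicate number occurs in more than 1 group.

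Differences near 0 changed sign, and no cause was tested. In thymus (ENK KO minus WT), Hmgcs1 became -7.01e-04 with median centring, -0.0097 with a sex covariate and -0.0090 with an age covariate. Sqle became 0.14, 0.12 and 0.14, and Srebf2 0.065, 0.056 and 0.11, with an age covariate, without 2-month-old mice and with males only. In spleen, Sqle became 0.065, 0.072 and 0.14 under the same settings, and Fdft1 -0.014 with array weights. All of these settings kept replicate 28, whose Sqle value was 8.71, and were not run without it. With only replicate 28 left out, the spleen difference of Sqle was -0.22. Fdps (ENK KO spleen minus thymus) became -0.013 both without 2-month-old mice and with males only. The last 2 settings leave thymus ENK KO with 1 array, assumed to vary like the other groups. The sex covariate and the setting with males only followed the labels, so both took spleen WT replicate 22 as female. Without both replicate 28 and spleen WT replicate 22, a setting chosen after seeing the data, Fdps differed by -0.043 between organs in WT and by -0.019 in ENK KO mice.

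With each array left out in turn, thymus differences ranged from -0.044 to 0.053 (Hmgcs1), -0.012 to 0.12 (Fdps), -0.037 to 0.15 (Fdft1), -0.19 to 0.12 (Sqle), -0.27 to 0.45 (Cyp51) and -0.12 to 0.056 (Srebf2). Spleen differences ranged from -0.064 to 0.15 (Idi1), -0.0088 to 0.13 (Fdps), -0.050 to 0.12 (Fdft1), -0.22 to 0.034 (Sqle), -0.016 to 0.17 (Cyp51) and -0.023 to 0.10 (Srebf2). Between organs they ranged from -0.057 to 0.18 (Idi1, WT), -0.043 to 0.10 (Fdps, WT) and -0.025 to 0.10 (Fdps, ENK KO). With quantile normalization Fdft1 and Srebf2 passed in WT mice (limma adjusted p = 0.0419 and 0.0307), as with array weights (0.00997 and 0.0148), and Sqle passed in ENK KO mice with median centring (0.0495) and array weights (0.0335). With males only, Sqle in WT mice (0.114) and Srebf2 in ENK KO mice (0.142) missed the threshold.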
